A study of Sus scrofa with 105 samples.

Results

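The region difference 1 day after diffuse traumatic brain injury was described in female piglets (Sus scrofa), as the microRNA (miRNA) content of the hippocampus together with the amygdala against that of the frontal lobe of the same animals. Its members are all libraries of the injured, otherwise untreated group that survived 1 day: 10 of the hippocampus and amygdala and 10 of the frontal lobe, 20 of the 105 libraries of the series. They were paired by the animal code in the library name, which gave 10 pairs, numbered here as animals 1 to 10. The labels do not say that each code is 1 animal, and this is assumed throughout. The p-values of the comparison at 1 day measure the spread between these pairs. Small RNA had been extracted with a kit for formalin-fixed, paraffin-embedded tissue (Mag-Bind) and made into libraries with the QIAseq miRNA kit. Groups used for comparison were injured animals at 1 week (6 to 8 days, untreated, 15 animals with both regions), injured animals that received cyclosporine A (CsA, an immunosuppressant that inhibits calcineurin; 9 animals), and sham or naive animals (0 to 8 days, untreated, 18 animals). The CsA animals received 20 mg/kg each day into a vein, beginning with a loading dose 6 hours after injury that an infusion of 24 hours followed, and survived 30 hours. All animals were female. The labels state no question about the regions and do not say how much tissue of each structure, or which neighbouring tissue, entered a block.

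MiRNAs are short RNAs that guide Argonaute proteins to messenger RNAs and lower their translation and stability. Brain cell classes differ in the miRNAs they hold: miR-124 is typical of neurons, miR-219 and miR-338 of oligodendrocytes, miR-126 of endothelium, miR-204 of choroid plexus, and the miR-200 and miR-183 families of epithelia and sensory cells, the olfactory system among them. In a block of tissue, fewer cells of a class and less of a miRNA per cell cannot be told apart. Porcine roles are mostly taken from work in human and mouse.

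Each library was a list of read counts per mature miRNA. Of 542 deposited entries 457 mature names remained, and 290 had enough counts to be tested. Totals at 1 day ran from 5857491 to 12413430 counts (median 9806660). The mean total was 9470287 ± 1635338 in the hippocampus and amygdala and 9528372 ± 2277328 in the frontal lobe (SD, n = 10 each; exact paired permutation test, 2-sided, p = 0.930). Values are given as CPM (a count scaled by its library's total, here with TMM factors), and differences as log2 fold changes, hippocampus and amygdala minus frontal lobe, from edgeR's quasi-likelihood test with the animal as a block. A miRNA is called when its Benjamini-Hochberg adjusted p over the 290 was under 0.05.

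The regions differed in many miRNAs, mostly by less than 2-fold. Of the 290 tested, 143 were called (49.3%): 72 were higher in the hippocampus and amygdala (24.8%) and 71 were lower (24.5%). The median size of the called differences was 0.54 on the log2 scale, a 1.45-fold difference. Only 63 of the 143 reached 1.5-fold, 34 higher and 29 lower, and 13 reached 2-fold, 7 higher and 6 lower. All 10 animals went in one direction for 49 of the 143, 22 of them higher and 27 lower. For 16 miRNAs (5.52% of those tested) no library of one region overlapped any of the other. Of these, 5 (1.72%) were higher in the hippocampus and amygdala: miR-31, miR-532-3p, miR-105-1, miR-139-5p and miR-676-3p. The other 11 (3.79%) were lower: miR-146b, miR-219b-3p, miR-23b, miR-27b-3p, miR-24-3p, miR-338, miR-132, miR-128, miR-340, miR-107 and miR-151-3p. Among the 16, miR-676-3p, miR-340 and miR-151-3p were named after their values were seen.

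**Figure D1:**
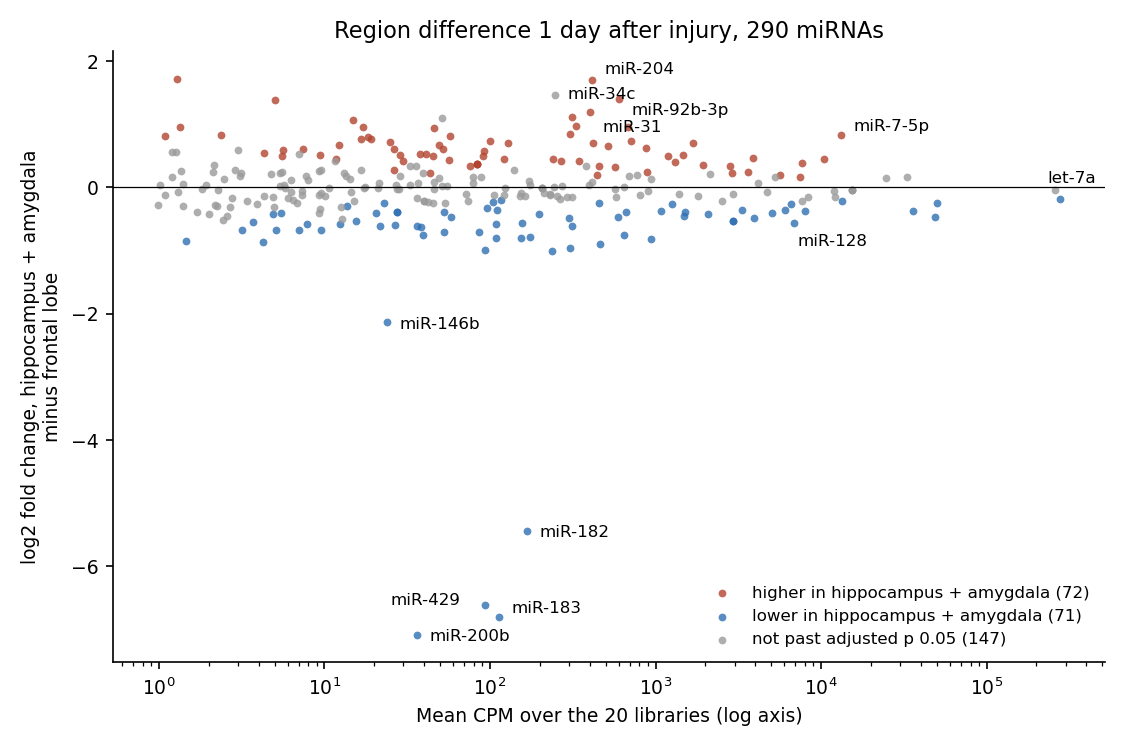
Log2 fold change, hippocampus and amygdala minus frontal lobe, against mean CPM over the 20 libraries (log axis) for 290 miRNAs, coloured by call. Most called miRNAs lie within 1 log2 unit of 0, and the 4 largest differences, all negative, are miR-200b, miR-183, miR-429 and miR-182.

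Among called miRNAs that averaged at least 10 CPM in either region, the widest difference on the higher side was that of miR-204, a miRNA of choroid plexus and retinal pigment epithelium. It had 196.5 CPM at the lowest, a median of 621 and 1714 at the highest in the hippocampus and amygdala, and 129, 158 and 211 CPM in the frontal lobe. It was higher in 10 of 10 animals (log2 1.70, SE 0.37, edgeR adjusted p = 0.00378), but by very different amounts: animals 4, 7 and 8 had 1095, 999 and 1714 CPM in the hippocampus and amygdala, while animals 2, 3, 5 and 6 had 237, 196.5, 208 and 254 and came close to the frontal values. The other measured choroid plexus and ependymal miRNA, miR-34c of multiciliated cells, was not called. It had 4.73, 449.7 and 881 CPM (lowest, median, highest) in the hippocampus and amygdala and 28.5, 104 and 213 in the frontal lobe (log2 1.46, SE 1.10, adjusted p = 0.308; without the animal block log2 1.84 and adjusted p = 0.0325). It was higher in the 7 animals other than 2, 5 and 6, whose hippocampus and amygdala held 4.73, 41.8 and 11.4 CPM. Thus 1 of the 2 measured miRNAs of this list was called, a share near the 49.3% called over all 290. The summed CPM of both was higher in 7 of 10 animals.

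miR-31 showed a firmer difference. Its hippocampus and amygdala values were 391, 550.4 and 879 CPM (lowest, median, highest), against 197, 241 and 296 in the frontal lobe. The regions did not overlap (log2 1.20, SE 0.11, edgeR adjusted p = 1.01e-05), and every animal lay between 0.70 and 2.11 on the log2 scale. miR-7-5p, a neuroendocrine miRNA that is bound by the circular RNA CDR1as, was the most abundant of the 14 miRNAs with the largest increases. It averaged 16892 ± 4951 CPM in the hippocampus and amygdala and 9519 ± 2697 in the frontal lobe (SD, n = 10 each; log2 0.82, adjusted p = 0.000627), and was higher in 9 animals. Its passenger arm miR-7-3p, at 3.98 ± 1.25 against 6.24 ± 0.865 CPM, was lower (log2 -0.68, adjusted p = 0.0104).

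The 14 also held miR-92b-3p (log2 1.41), miR-139-3p (1.12), miR-532-3p (1.07), miR-296-3p (0.97), miR-423-5p (0.96), miR-105-1 (0.96), miR-184 (0.94), miR-489 (0.84), miR-935 (0.82), miR-1343 (0.80) and miR-193a-5p (0.77). miR-105-1, whose human relative lies in an intron of a GABA-A receptor gene, had 15.8, 22.8 and 25.2 CPM in the hippocampus and amygdala against 7.81, 12.6 and 14.1 in the frontal lobe, with no overlap. miR-184, known from lens and cornea as well as brain, was higher in 10 of 10 animals (60.4 ± 19.2 CPM against 31.3 ± 8.05), as was miR-489, a miRNA of quiescent muscle stem cells (394 ± 156 against 212 ± 44.9). miR-92b-3p, miR-423-5p and miR-1343 were higher in 8 animals and lower in animals 4 and 5. miR-139-3p was higher in 9 animals, with 425 ± 120 CPM against 197.6 ± 60.1.

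**Figure D2:**
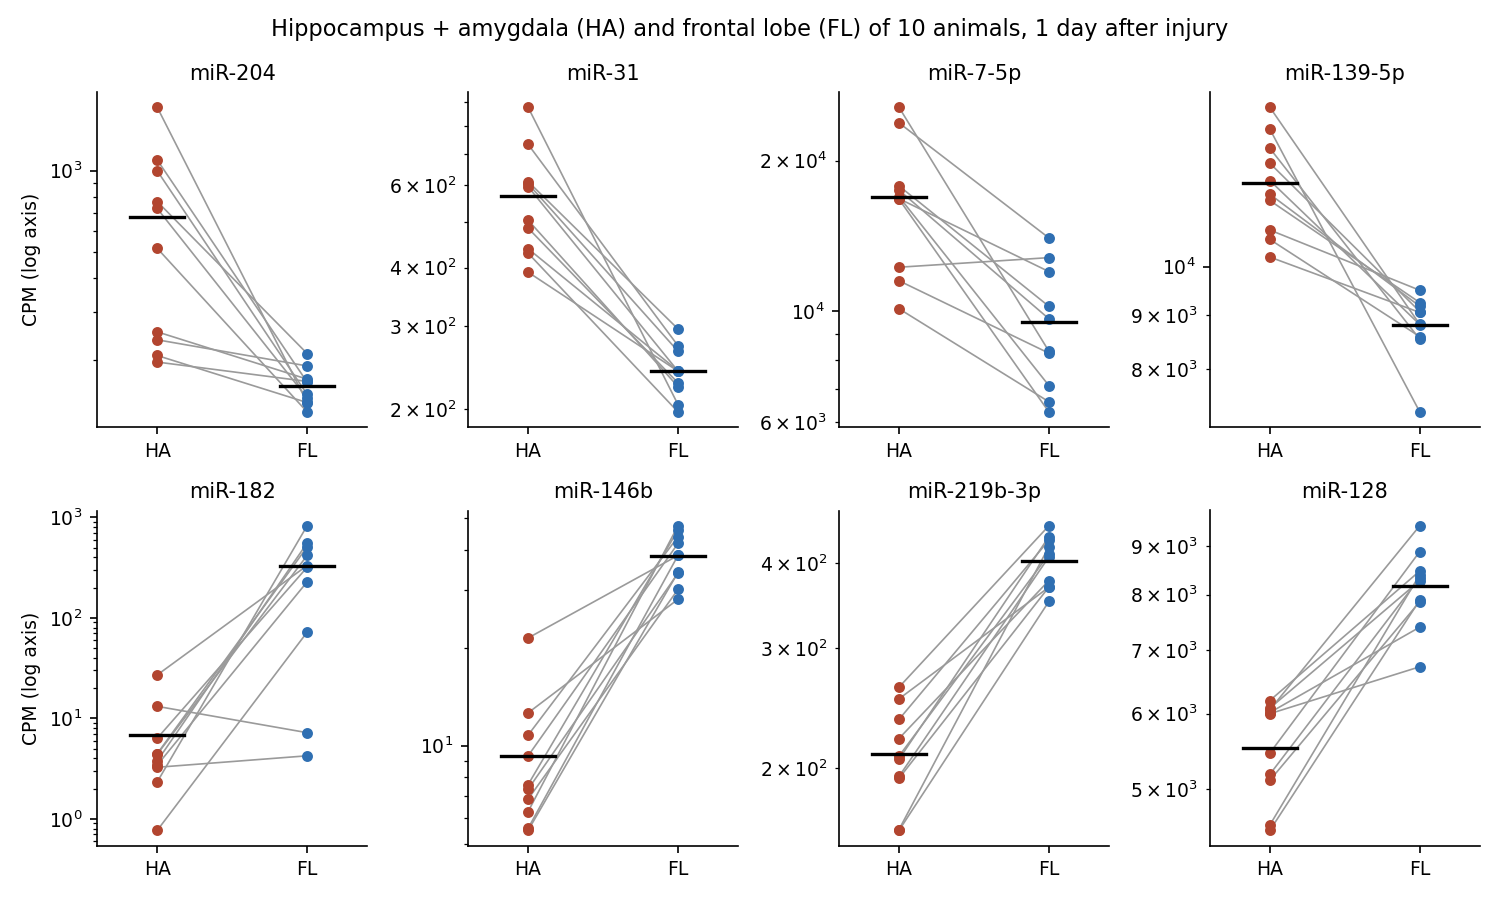
CPM of 8 miRNAs (log axis, a scale of its own in each panel) in the hippocampus and amygdala (HA, left) and the frontal lobe (FL, right); each line joins the libraries of 1 animal and bars are means over 10 animals. miR-31, miR-139-5p, miR-146b, miR-219b-3p and miR-128 do not overlap between regions, and for miR-182 the frontal values of 2 animals lie with the hippocampus and amygdala values.

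Epithelial and olfactory miRNAs made the largest decreases. miR-182, of the sensory miR-183 cluster, had 0.766, 4.07 and 27.0 CPM (lowest, median, highest) in the hippocampus and amygdala, and 4.24, 325 and 824 CPM in the frontal lobe (log2 -5.43, SE 1.13, edgeR adjusted p = 0.00369). Its cluster mate miR-183 had 0.190, 0.905 and 13.8 CPM in the hippocampus and amygdala and 0.368, 226 and 575 CPM in the frontal lobe. miR-200b, a repressor of the ZEB factors in epithelium, was at 0, 0.115 and 1.79 CPM in the hippocampus and amygdala against 0, 65.2 and 206 CPM in the frontal lobe, and miR-429 of the same cluster at 0.128, 1.07 and 13.3 against 0, 175 and 452 CPM. Such decreases were present in 8 of the 10 pairs. In the frontal lobe of animals 1 and 8, miR-182 was at 7.19 and 4.24 CPM, miR-183 at 1.35 and 0.368 CPM, and miR-200b at 0.899 and 0 CPM. The highest hippocampus and amygdala values of all 4 were those of animals 5 and 1. The fitted log2 values (-7.08 for miR-200b, -6.80 for miR-183, -6.62 for miR-429) depend on the prior count where libraries hold few counts: miR-200b summed to 42 counts over the 10 hippocampus and amygdala libraries. They also depend on animal 1: without it they were -7.98, -7.45 and -7.24, and that of miR-182 was -5.89. The smallest sizes on leaving out 1 animal were -6.67 for miR-200b, which was not tested without animal 5, -6.37 for miR-183, -6.28 for miR-429 and -5.06 for miR-182. All 4 measured members of the list were called lower. Members that pass the filter mostly through frontal libraries are likely to differ, so the count is no support. miR-141 (0.395 ± 0.910 against 43.7 ± 36.2 CPM) and miR-96-5p (0.202 ± 0.512 against 14.0 ± 10.5), the other 2 members, did not pass the filter on low counts.

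**Figure D3:**
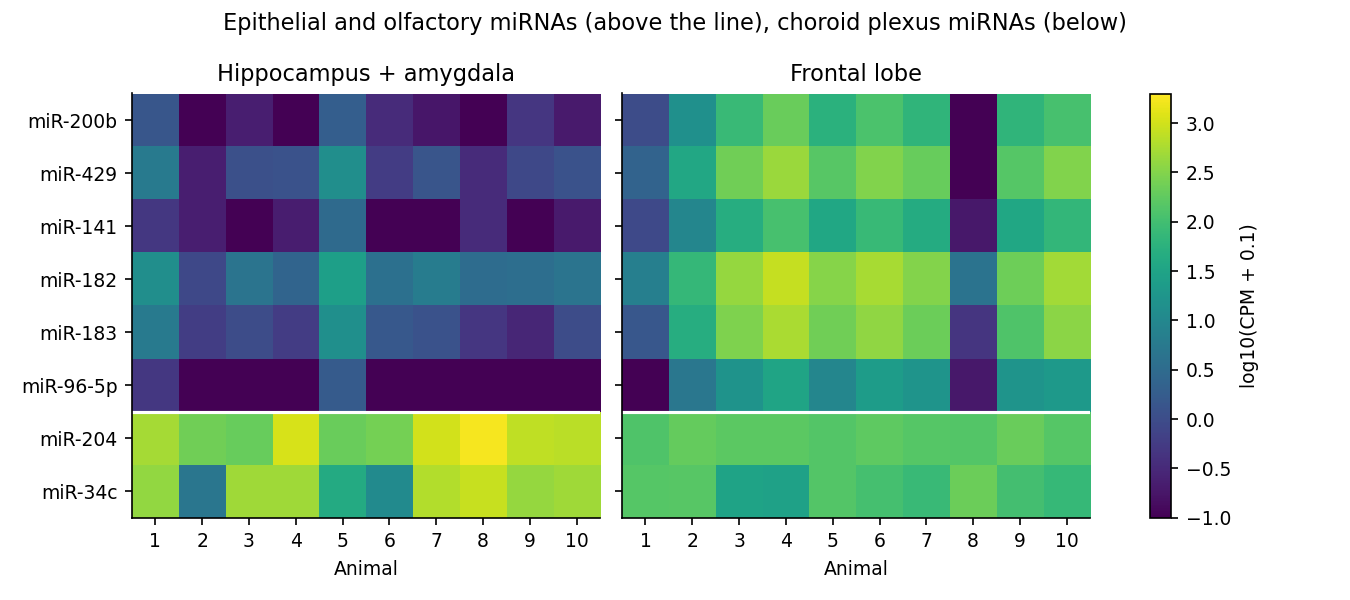
Level in each animal (columns) as log10 of CPM plus 0.1, in the hippocampus and amygdala (left) and the frontal lobe (right), for 6 epithelial and olfactory miRNAs above the white line and 2 choroid plexus miRNAs below it. The epithelial miRNAs are high in the frontal lobe of 8 animals and near 0 in animals 1 and 8, and miR-34c is low in the hippocampus and amygdala of animals 2, 5 and 6.

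The frontal level of miR-182 also differed widely between libraries of the other groups, though in no CsA library was it near 0. With CPM scaled over 104 libraries, miR-182 was above 50 CPM (a limit chosen after the values were seen) in the frontal lobe of 8 of 10 animals at 1 day, 4 of 15 at 1 week, 9 of 9 with CsA and 9 of 18 sham or naive animals. In the hippocampus and amygdala it passed that level in 0, 0, 0 and 1 animals of these groups. Frontal medians were 296 CPM at 1 day, 5.42 at 1 week, 730 with CsA (lowest 54.4) and 57.5 in sham or naive animals.

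Neuron-enriched miRNAs moved both ways. Of 15 measured names 5 were higher, 3 lower and 7 not called, but several names hold near-equal counts of the same reads. Counted once each, they were 10 miRNAs, of which 3 were higher (miR-129a-3p, miR-137 and miR-218), 2 lower (miR-128 and miR-129a-5p) and 5 not called, with a median log2 of 0.05, against -0.02 over all 290, of which 24.8% were higher and 24.5% lower. miR-124a, the most neuron-specific of them, had 7165 ± 1604 CPM in the hippocampus and amygdala and 8275 ± 1360 in the frontal lobe and was not called (log2 -0.22, SE 0.10, edgeR adjusted p = 0.0883); it was called without animal 9 (adjusted p = 0.0247, range over single animals left out up to 0.165). miR-9 of neural progenitors and neurons (log2 -0.05) and miR-138 of dendrites (log2 -0.16, adjusted p = 0.107; 0.0416 without animal 6) were not called either. miR-128, a brain-enriched regulator of neuronal excitability, was lower without overlap: 4524, 5726 and 6193 CPM (lowest, median, highest) against 6720, 8304 and 9451 (log2 -0.57, adjusted p = 0.000146). miR-137, which acts on synaptic genes, was higher in 10 of 10 animals at 1719 ± 478 CPM against 1214 ± 392 (log2 0.51, adjusted p = 0.00176). miR-218, known from motor and hippocampal neurons, appeared under 3 names with near-equal counts (log2 0.37, adjusted p = 0.0432), and that call was lost without any 1 of animals 1, 3, 4, 5, 7, 8 or 10 (adjusted p up to 0.117). Both activity-regulated miRNAs were lower: miR-132, a target of the transcription factor CREB, had 71.9, 119 and 145 CPM against 174, 189.6 and 243, with no overlap (log2 -0.79, adjusted p = 0.000254). miR-212 of the same transcript had 12.8 ± 2.84 CPM against 18.3 ± 2.42 (log2 -0.53) and was lower in 10 of 10 animals.

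Of 3 measured oligodendrocyte miRNAs, 2 were lower in the hippocampus and amygdala, where 24.5% of all 290 were lower. miR-219b-3p had the smallest p of all miRNAs: 162, 207 and 263 CPM (lowest, median, highest) in the hippocampus and amygdala against 351, 409.9 and 453 CPM in the frontal lobe, with no overlap (log2 -0.96, SE 0.08, edgeR adjusted p = 8.2e-06). miR-338 had 684.5 ± 120 CPM against 1206 ± 219.8 (log2 -0.82, adjusted p = 0.000208), again with no overlap. miR-219a, at 1.99 ± 0.819 CPM against 2.39 ± 0.770, was near the lower limit of measurement and not called. The summed CPM of the list was lower in 10 of 10 animals.

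Astrocyte-associated miRNAs had 7 of 9 measured members lower and 0 higher, where 24.5% of all 290 were lower, with a median log2 of -0.58, against -0.02 over all 290. They were the 6 measured names of the miR-23a and miR-23b clusters, both arms of miR-27b among them, and miR-29c. Names of 1 cluster are not independent. miR-23b had 323 ± 52.8 CPM in the hippocampus and amygdala and 596.5 ± 78.1 in the frontal lobe (log2 -0.89), and miR-27b-3p had 157 ± 23.5 and 320.0 ± 80.8 (log2 -1.002). miR-24-3p, shared with the miR-23a cluster, had 1251 ± 134.6 against 1707 ± 85.8 CPM (log2 -0.45). None of these 3 overlapped between regions. miR-29c was lower (log2 -0.37, adjusted p = 0.0287) with a call that was lost without any 1 of animals 2, 3, 7, 8 or 9 (up to 0.0674), and the abundant miR-29a-3p was not called (log2 -0.10).

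Among miRNAs of microglia and inflammation, 2 of 5 were lower and 0 higher, in a background of 24.5% lower over all 290. miR-146b, a brake on NF-kappa-B signalling, had 5.49, 7.47 and 21.4 CPM in the hippocampus and amygdala against 28.2, 38.4 and 47.4 in the frontal lobe. It was lower in 10 of 10 animals with no overlap and was the largest decrease outside the epithelial miRNAs (log2 -2.14, SE 0.20, edgeR adjusted p = 1.01e-05). miR-155-5p, induced in activated immune cells, was lower as well (252.5 ± 39.7 against 352 ± 54.5 CPM, log2 -0.48, adjusted p = 0.000526). miR-21-5p, induced in reactive glia, had 146 ± 38.4 CPM against 158 ± 32.5 and was not called (log2 -0.14, adjusted p = 0.437).

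Blood and vessel miRNAs were measured beside these. Over all 290, 24.8% were higher and 24.5% lower. Of 5 leukocyte miRNAs 1 was higher and 1 lower, shares near those of all 290. The 2 endothelial calls, of 5 names, are the arms of 1 precursor. Endothelial miR-126-3p had 5309 ± 705 CPM in the hippocampus and amygdala and 6825 ± 958 in the frontal lobe (log2 -0.36, edgeR adjusted p = 0.00369), and miR-126-5p was lower too (log2 -0.38); the other 3 endothelial names, miR-221-3p (log2 0.08) among them, were not called. The smooth muscle pair miR-143-3p (log2 -0.48) and miR-145-5p (log2 -0.36) was lower, 2 of 8 mural and mesenchymal names, or 2 of 7 with the near-equal names miR-199a-3p and miR-199b-3p counted once; that share is near the 24.5% of all 290. Each of these 4 was lower in 9 of 10 animals and higher in animal 5. Of 5 leukocyte miRNAs, miR-150 was lower (log2 -0.24, adjusted p = 0.0389, lost without any 1 of animals 3, 4, 7, 8 or 10, up to 0.0805) and miR-223 of granulocytes higher (9.04 ± 2.87 against 5.82 ± 1.58 CPM, log2 0.61, adjusted p = 0.0454, lost without any 1 of animals 1, 2, 5, 6, 7, 8 or 10, up to 0.109), while miR-142-5p (log2 0.35, adjusted p = 0.0795; 0.0291 without animal 9) and miR-342 (log2 0.20) were not called. Erythroid miR-486 was higher at 158 ± 54.7 against 99.2 ± 38.5 CPM (log2 0.70, adjusted p = 0.0244, lost without any 1 of animals 1, 2, 6 or 9, up to 0.0616), and miR-451, at 5.31 ± 4.15 against 4.16 ± 2.75 CPM, was not called. Striated muscle miRNAs were split: miR-1 was lower (66.6 ± 40.8 against 120 ± 20.8 CPM, log2 -0.99), as was miR-133a-3p (log2 -0.87), and miR-206 was higher (34.3 ± 12.0 against 25.4 ± 6.99 CPM, log2 0.42). Whether the blood content of the blocks had a part in any other difference was not tested.

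The let-7 family, the most abundant miRNAs of mature brain, took a smaller share of counts in the hippocampus and amygdala: 71.0% ± 2.08 against 73.3% ± 1.72 (SD, n = 10 each). The share was lower in 10 of 10 animals (exact paired permutation test, 2-sided, p = 0.00195, the smallest that 10 pairs allow). With the deposited entries unmerged the mean difference was -2.24 percentage points (p = 0.00586 by the same test). Animal 9 then went the other way, at 69.5% against 69.0%. As CPM with TMM factors, the family's sum was higher in the hippocampus and amygdala of 1 animal. The family's members were unequal. let-7g had 40969 ± 6990 CPM against 56777 ± 10624 (log2 -0.47, edgeR adjusted p = 0.00378), let-7i-5p was at log2 -0.37 and let-7a at -0.19, whereas let-7c (log2 -0.04) and let-7e (log2 0.16, adjusted p = 0.0534; called without animal 4 or without animal 5, from 0.0248) were not called. let-7f-5p (log2 -0.24, adjusted p = 0.0432) lost its call without any 1 of animals 1, 2, 3, 6, 7, 8, 9 or 10 (up to 0.105). In all, 5 of 10 were lower and 0 higher, where 24.5% of all 290 were lower and 24.8% higher. The 5 include the scarce arm let-7i-3p, at 2.47 against 3.92 CPM. Reads may be shared between members that differ by few bases, so single members are uncertain.

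Other families are set beside the 24.8% higher and 24.5% lower of all 290. Of the miR-17-92 group and its relatives, 7 of 13 were lower and 2 higher; the lower ones included miR-18a (log2 -0.76), miR-17-5p (log2 -0.71) and miR-20a-5p (245 ± 37.0 against 377 ± 78.3 CPM, log2 -0.61, edgeR adjusted p = 0.000274), and the higher ones were both arms of miR-92b, which lies elsewhere in the genome. The families of miR-15, miR-16, miR-103 and miR-107 had 4 of 7 lower and 0 higher, with miR-16 at 7017 ± 737 against 9084 ± 977.5 CPM (log2 -0.37) and miR-107 at 1127 to 1467 against 1521 to 1912 CPM (log2 -0.39). The miR-99/100 and miR-125 families had 4 of 6 higher and 0 lower, led by miR-99b (1061 ± 219 against 692 ± 164 CPM, log2 0.63) and miR-125a (log2 0.36); the smaller differences of miR-125b (log2 0.19) and miR-99a-5p (log2 0.33) lost their calls, miR-125b without any 1 of animals 1, 2, 6, 7, 8 or 10 (up to 0.0877) and miR-99a-5p without animal 1 (0.0836). Of the imprinted DLK1-DIO3 cluster, 6 of 18 were higher and 1 lower (median log2 0.05), among them miR-432-5p (4520 ± 589 against 3254 ± 315 CPM, log2 0.47, adjusted p = 0.000254), miR-382 (log2 0.24) and miR-323 (log2 0.25), each higher in 10 of 10 animals. Its smaller calls were less firm: miR-299 (log2 0.20) lost its call without any 1 of animals 1, 2, 5, 6, 7, 8 or 10 (up to 0.0938), and miR-127 without animal 1 or 6 (up to 0.0541). The miR-30 family had 4 of 10 lower and 1 higher, the miR-181 family 2 of 5 lower, the joint list of miR-130, miR-148 and their relatives 2 of 8 lower, a share near that of all 290, and neither measured HOX-cluster miRNA was called. miR-181a lost its call without animal 3 (adjusted p = 0.0562) and miR-181b without any 1 of animals 3, 4 or 10 (up to 0.0574).

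Position was compared with the direction of the calls, in groupings made after the values were seen. Of the 290 tested names, 255 could be placed on precursors in the RefSeq annotation of Sscrofa11.1 by name. Precursors within 10000 bases of each other were joined into 30 distinct neighbourhoods, each with 2 or more precursors and 2 or more tested names. A precursor without such a neighbour was left out, also where both of its arms were tested. A name made from several precursors can stand in more than 1 of them, as 6 names did in 2 each, miR-24-3p and miR-19b among them. In 13 of the 30 more than 1 name was called, all in one direction, and 0 held calls of both directions. Over all 290 tested, 49.3% were called, 24.8% higher and 24.5% lower. Both arms of a precursor count as separate names. The arms of miR-7 and of miR-129a, called in opposite directions, stand in none of the 30. The cluster of miR-532, miR-500 and miR-362 had 4 of 5 names higher, miR-23b, miR-24-3p and miR-27b 4 of 4 lower, and let-7e, miR-125a and miR-99b 2 of 3 higher. Neighbours are made from shared transcripts in many cases and are not independent.

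Both arms of a hairpin were tested for 59 pairs, with near-equal names counted once. Of all 290 names, 49.3% were called. Neither arm was called in 22 pairs, and only 1 arm in 21. Whether both arms were called more often than that share alone would give was not tested. Both were called in 16 pairs, in the same direction in 13. In the other 3 the arms went opposite ways: miR-129a-3p was higher (log2 0.61) and miR-129a-5p lower (log2 -0.54), miR-30c-3p higher (0.34) and miR-30c-5p lower (-0.42), and miR-7-5p higher and miR-7-3p lower. A test of the difference between the arms within animals (exact paired permutation, 2-sided, Benjamini-Hochberg over 59) passed 0.05 in 11 pairs. The miR-129a arms differed by 1.15 on the log2 scale in 10 of 10 animals (exact p = 0.00195, adjusted p = 0.0230), and miR-532-3p exceeded miR-532-5p, which was not called itself (log2 0.18, adjusted p = 0.0534 by edgeR), by 0.89 in 10 of 10.

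Animals were unequal in how far they followed the common difference. Of the 143 calls, 8 animals showed the fitted direction in 132 to 141, but animal 4 in 95 and animal 5 in 93. High agreement is partly built in, because the calls and their direction come from these same 10 animals. In animal 4, 41 of the 72 higher calls and 54 of the 71 lower calls had the fitted sign, and in animal 5 39 and 54. These 2 animals also had the largest ratio of totals, 1.56 and 1.36 times as many counts in the hippocampus and amygdala as in the frontal lobe. The opposite extreme, animal 2 with 0.570 times, followed 132 of 143. With the 7 animals whose totals differed by less than 1.3-fold, an alternative chosen after the values were seen, 154 of 289 were called, 75 higher and 79 lower, and 129 of them were among the 143. Across the 10 animals the paired difference of 28 miRNAs (the 14 largest in each direction) was set against the log2 ratio of totals. For none did the relation pass after adjustment over 28: the strongest were miR-935 (Pearson r = -0.80, permutation p = 0.00442, adjusted p = 0.0619; Spearman rho = -0.62, permutation p = 0.0596, adjusted p = 0.268) and miR-139-3p (r = -0.80, permutation p = 0.00427, adjusted p = 0.0619; rho = -0.60, permutation p = 0.0727, adjusted p = 0.268). Without animals 2 and 4, which had the most extreme ratios, r was -0.56 for miR-935 and -0.54 for miR-139-3p. In that smaller set the relation was wider for other miRNAs, at r = -0.77 for miR-92b-3p (-0.60 with all 10), 0.73 for miR-7-5p (0.55) and 0.70 for miR-132 (0.15). What the ratio had to do with the difference was not tested further.

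**Figure D4:**
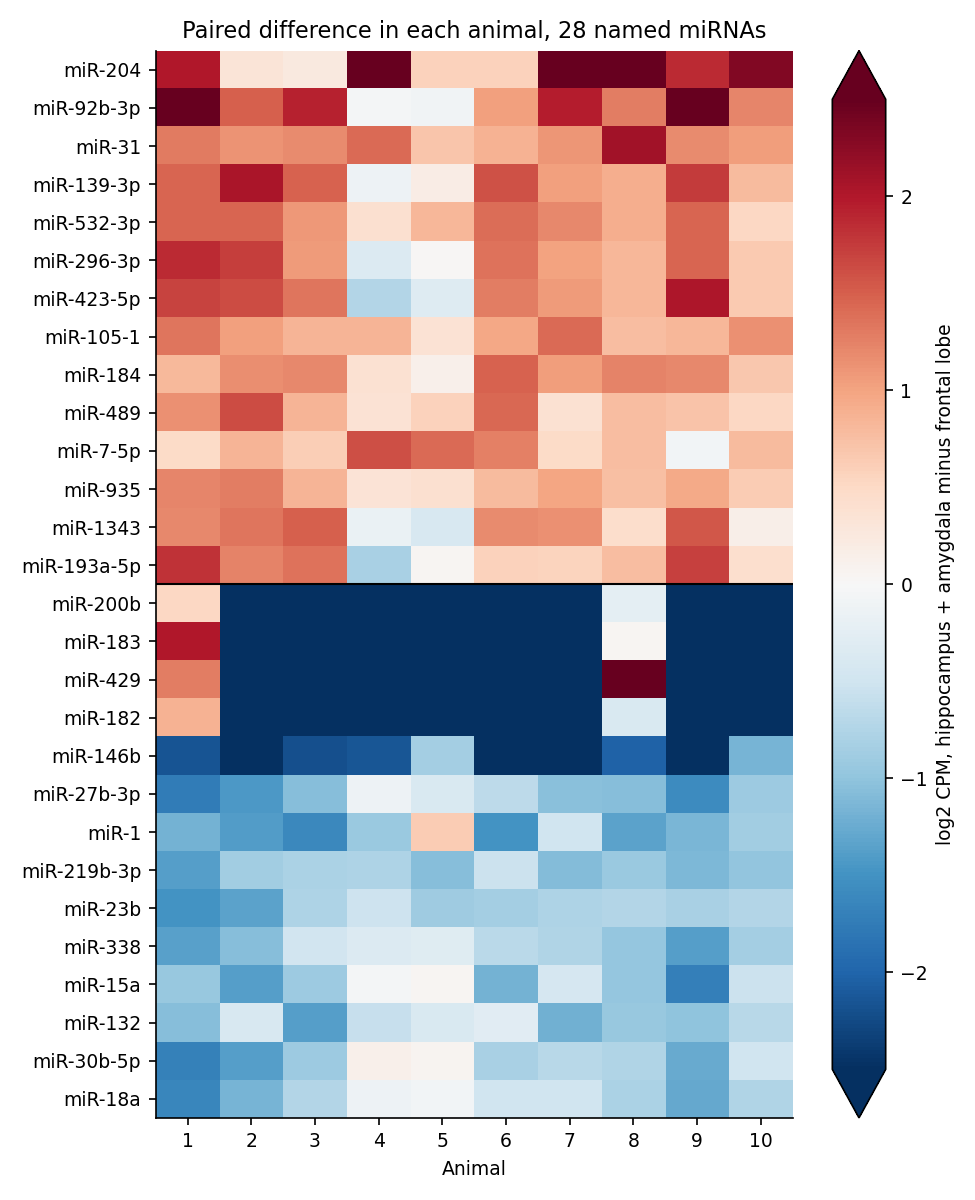
Paired log2 difference of CPM, hippocampus and amygdala minus frontal lobe, in animals 1 to 10 (columns) for the 14 largest increases (above the line) and the 14 largest decreases (below); colours saturate beyond 2.5 log2 units either way. Animals 4 and 5 are pale in many rows, though miR-204, miR-31 and miR-7-5p are strong in animal 4, and animals 1 and 8 lack the decreases of miR-200b, miR-183, miR-429 and miR-182.

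The animal codes began with 11 (5 animals), 12 (animals 7 and 8) or 13 (animals 1, 3 and 9), and the labels do not give what these starts mean. Codes 12 and 13 were pooled here. In the 5 animals with codes beginning 11 (animals 2, 4, 5, 6 and 10), 27 of 286 miRNAs were called (9.44%; 10 higher, 17 lower; 78 at an unadjusted p under 0.05), and 25 of these were among the 143. In the 5 with codes beginning 12 or 13, 140 of 291 were called (48.1%; 69 higher, 71 lower), 118 of them among the 143. All 142 of the 143 that were tested in the first set kept their sign, as did all 141 tested in the second, which is partly built in because these animals are part of the whole comparison. The log2 difference was, at the median of these miRNAs, 0.79 times that of all 10 animals with codes beginning 11 and 1.24 times with codes beginning 12 or 13. miR-31 was called in both sets, at log2 1.01 and 1.37, and so was miR-7-5p, at log2 1.17 and 0.46. miR-204 was called only with codes beginning 12 or 13 (log2 2.12, adjusted p = 0.0213) and not with codes beginning 11 (log2 1.26, adjusted p = 0.134), whereas miR-182 was called with codes beginning 11 (log2 -6.58, adjusted p = 0.00808) and not with codes beginning 12 or 13 (log2 -3.999, adjusted p = 0.167); the difference between the sets was not tested.

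The same region comparison was then made in the other groups, to see whether the difference at 1 day stood apart. One edgeR fit of the 52 animals with both regions tested 307 miRNAs. It called 143 at 1 day (46.6%), 133 at 1 week (43.3%), 174 with CsA (56.7%) and 149 in sham or naive animals (48.5%). Of the 143 miRNAs called in the fit of the 1 day libraries, 74.8% were also called in the same direction at 1 week, 83.2% with CsA and 84.6% in sham or naive animals, and 0 were called in the opposite direction in any of the 3. All 28 named miRNAs had the same sign in each group. miR-146b was at log2 -2.15 ± 0.23 (SE) at 1 day, -2.14 ± 0.20 at 1 week, -1.86 ± 0.24 with CsA and -2.38 ± 0.19 in sham or naive animals. miR-219b-3p was at -0.97 ± 0.09, -1.01 ± 0.07, -0.99 ± 0.10 and -0.96 ± 0.07 in the same order.

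**Figure D5:**
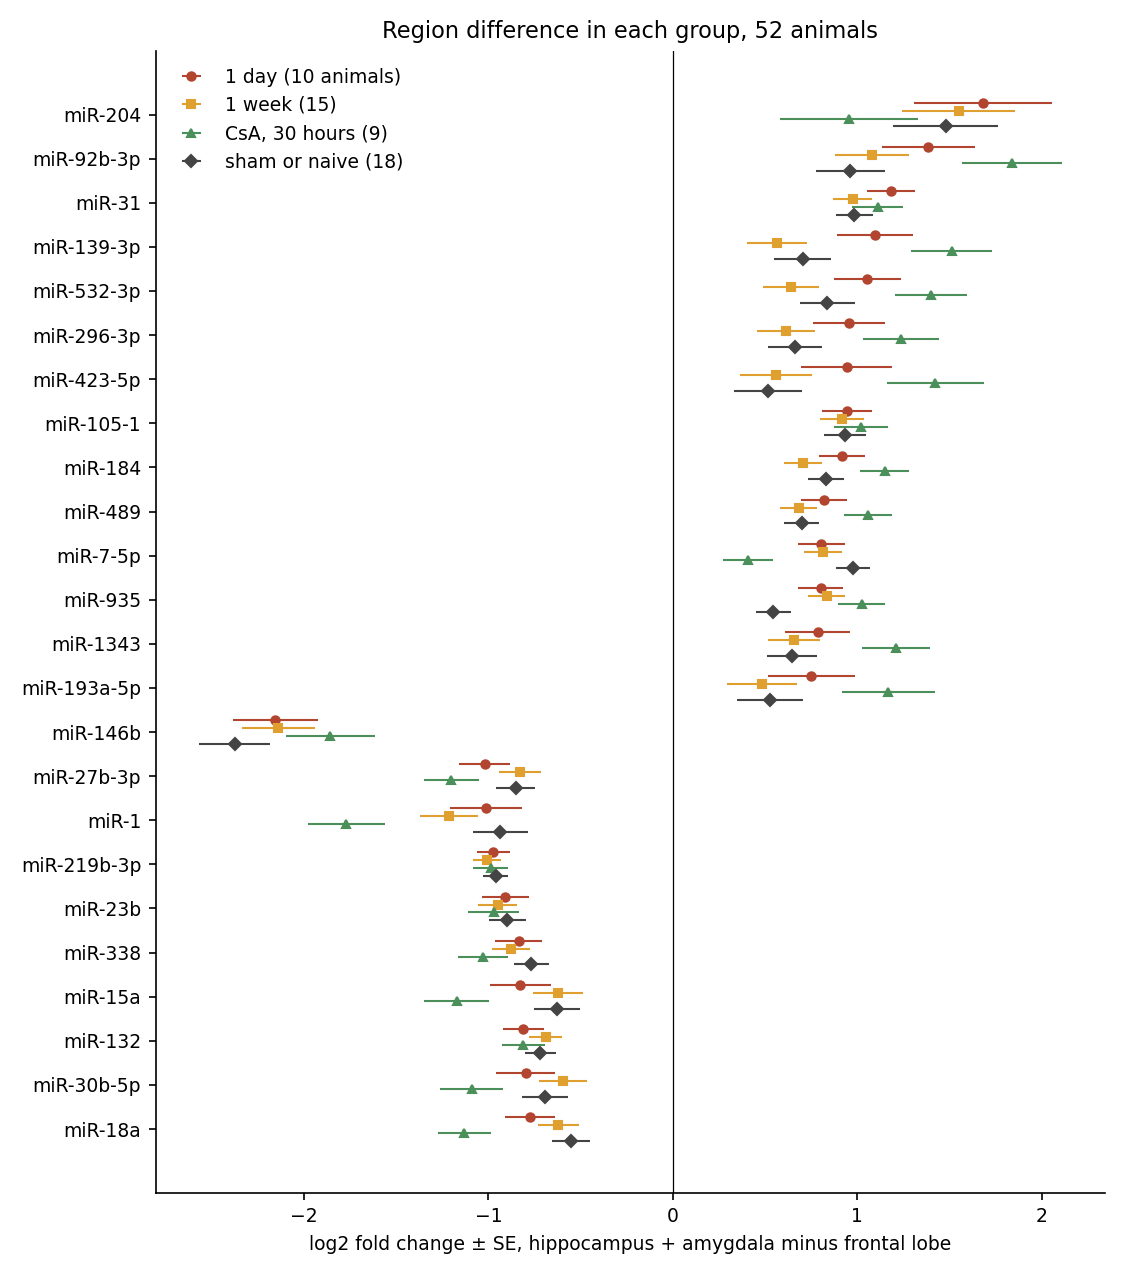
Log2 fold change ± SE, hippocampus and amygdala minus frontal lobe, at 1 day, at 1 week, with CsA and in sham or naive animals, from 1 fit of 52 animals, for 24 of the 28 named miRNAs (miR-200b, miR-183, miR-429 and miR-182 lie off this scale). Every point of a miRNA lies on the same side of 0 in all 4 groups.

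Tests of the difference itself found no miRNA whose region difference at 1 day departed from another group by edgeR. Against 1 week 0 of 307 passed (16, or 5.21%, at an unadjusted p under 0.05, smallest adjusted p = 0.846), against CsA 0 (18, 5.86%, smallest 0.533) and against sham or naive animals 0 (5, 1.63%, smallest 0.965). limma voom also gave 0 in each. DESeq2 gave 0 against CsA and against sham or naive animals and 5 against 1 week, namely miR-182 (log2 difference -4.02, DESeq2 adjusted p = 0.00135), miR-183, miR-429, miR-200b and miR-141, the miRNAs that are present in some frontal libraries and near 0 in others. By edgeR, miR-182 differed by -3.55 ± 1.39 (SE; unadjusted p = 0.0135, adjusted p = 0.846), with region differences of -5.43 at 1 day and -1.88 at 1 week. The precision of these comparisons is limited: over the 28 named miRNAs the median SE of the difference was 0.22 on the log2 scale against 1 week, 0.25 against CsA and 0.21 against sham or naive animals. For miR-31 the 1 day minus sham difference was 0.20 ± 0.16 (SE), and for miR-204 it was 0.20 ± 0.46. Depth and code starts also differed between the groups. Totals of sham or naive libraries went down to 98996 counts, and 1 week codes began with 10, 11, 14, 15 or 17. Whether depth or code start had a part in these comparisons was not tested.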

How the data were processed

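The authors deposited raw counts, whole numbers for each mature miRNA in each library. The submitters' processing notes name Trimmomatic 0.39 and cutadapt 1.9.1, both trimming tools. Aligner, counter, annotation, build and any use of molecular identifiers: not given in the sources used here. Counts therefore need not be independent molecules. Where a mature name had several entries, the one with the highest total was kept (457 names, 88 of them at 0 in all 20 libraries). In 6 sets, different names had near-equal counts (within 0.01 of the larger total) and were left as they stood, so their reads are counted more than once; merging them was an alternative.

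The 20 libraries at 1 day were fitted with edgeR 4.0.16 in R 4.3.3 (filterByExpr with a minimum count of 10, TMM factors, robust quasi-likelihood test, animal as a block), tested on simulated data first. CPM uses the totals of tested miRNAs times the TMM factor; paired differences add 0.5 to each count. A second fit took the 104 libraries of 52 animals with both regions and tested region by group terms. Its p-values rest on an estimate of spread that all groups share. DESeq2 1.42.0 and limma 3.58.1 were alternatives. Pairing rests on the animal code: the 2 libraries of an animal deviated from their region means with a correlation of 0.13 at the median (-0.42 to 0.77), over 0.1 in 5 of 10 animals, and at -0.0073 between animals. The best match was the library with the same code in only 3 of 10 animals.

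Named miRNAs are the 14 largest differences in each direction among called ones whose mean reached 10 CPM in either region, their partner arms, the 10 most abundant, and, called or not, members of 22 lists that reached 10 CPM. Members and lists were chosen with earlier results of these data known. miR-375, miR-219a, miR-451, miR-133a-3p and miR-223 were added after their values were seen. The list members let-7i-3p, miR-146a-5p and miR-21-3p, under 10 CPM in both regions, are given outside this rule. They are not among the 105 miRNAs followed through the alternatives. No sequences were used here.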

Additional observations from a re-analysis of the deposited data

Results flagged for a closer look

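In all, 6 paired differences stood far from those of the other 9 animals (Dixon's test at 95%, 136 groups of 10 tested; chance flags about 1 in 20). In animal 8, miR-31 was at a log2 difference of 2.11, with the other animals at 0.70 to 1.43. Animal 5 stood apart for 4 miRNAs of muscle and vessels. Its miR-1 was at 0.64, where the others lay between -1.61 and -0.49, and its miR-143-3p was at 0.66, where the others lay between -1.01 and -0.18. Its miR-126-3p was at 0.28, against -0.62 to -0.25 in the others, and its miR-126-5p at 0.44, against -0.76 to -0.16. In animal 9, miR-181d-5p, which was not called, was at 0.43, with the others between -0.44 and 0.01.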

How the results depend on the processing

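The count of 143 called miRNAs was 144 with RLE factors, 154 with DESeq2, 148 with limma voom, 129 with at least 10 CPM in either region, 180 with the deposited entries unmerged, 139 with near-equal names merged, 133 without let-7 and 156 with log10 total as a covariate; without a filter it was within this range. Without the replicate block it was 133 (68 higher, 65 lower), and 130 of these were among the 143; of 86 called miRNAs given here, let-7f-5p, miR-150, miR-206, miR-181a, miR-181b and the 3 names of miR-218 lost their calls (adjusted p from 0.0558 to 0.0964), and miR-34c and miR-375 gained one. Leaving out 1 animal gave 121 (without animal 1) to 154 (without animal 5). It was 27 within codes beginning 11. The 28 named miRNAs kept direction and call under each of these settings, except 13 not called within codes beginning 11, 3 not called and 1 not tested within codes beginning 12 or 13, and 1 not tested without animal 5 and with totals within 1.3-fold. The interaction with 1 week gave 5 with DESeq2. Among the 105 miRNAs given here, signs turned only in values that were not called: within codes beginning 11 for miR-9 (0.0337), miR-138 (0.0168), miR-26a (-0.00039), miR-21-5p (0.0032), miR-29a-3p (0.0562), miR-34c (-0.95) and miR-375 (-0.94), within codes beginning 12 or 13 for let-7c (0.0731) and miR-451 (-0.10), with totals within 1.3-fold for let-7c (0.0312) and miR-219a (0.0023), and for miR-9 on leaving out animals (-0.13 to 0.0057). The difference of log10 totals was -0.000452 with unmerged entries and ran from -0.0172 to 0.0314 on leaving out animals. Low levels limit what can be seen: 69 of the 290 averaged under 10 CPM in both regions, and 18 of them were called.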

Other observations

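miR-375, a neuroendocrine and epithelial miRNA that was looked at after its values were seen, varied among hippocampus and amygdala libraries much as miR-34c did. It had 3.83, 12.5 and 4.97 CPM in the hippocampus and amygdala of animals 2, 5 and 6, and between 52.4 and 198 CPM in the other 7. In the frontal lobe it ran from 14.9 to 67.0 CPM. It was not called (log2 1.10, SE 0.84, edgeR adjusted p = 0.309; 0.0359 without the animal block).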
